A study of Mus musculus with 21 samples.

Results

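The genes described here encode the enzymes and regulators of glycolysis and the classical response to low oxygen, measured as RNA in endothelial cells sorted from adult mouse brain. They are 36 genes picked by name, of 24206 gene names in the deposited table. Those that averaged 1 RPKM or more (reads divided by the length of the gene and the size of the library) were tested, which were 30 in a stroke experiment of 16 libraries and 29 in a beta-catenin experiment of 5.

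All mice were C57BL/6 and 12 to 20 weeks old, and live cells were sorted as CD31+ (an endothelial surface protein), CD45- (no leukocyte protein) and PDGFRb- (no pericyte protein). In the stroke experiment every mouse had a middle cerebral artery closed for 1 h and reopened for 1 d, so the non-stroke hemisphere also came from mice with a stroke. The groups WT-NS and WT-ST hold cells of the non-stroke and the stroke hemisphere of Gpr124 flox/+; ROSA-CreER+ mice, which are labelled WT but carry a floxed allele and the inducible Cre recombinase. The groups Cko-NS and Cko-ST hold the same hemispheres of Gpr124 flox/-; ROSA-CreER+ mice. Each of these groups has 4 libraries. The ROSA locus is active in most cell types, so this Cre is not limited to endothelium. In the other experiment, without stroke, 3 libraries (Bcat) came from Ctnnb1 lox(ex3)/+; Cdh5-CreER+ mice, whose Cre is driven by an endothelial promoter and whose beta-catenin loses the part that marks it for breakdown, and 2 libraries (WT) came from Ctnnb1 +/+; Cdh5-CreER+ mice. The study set out to find genes that Gpr124, a Wnt7 co-receptor, and beta-catenin regulate in these cells. Stroke libraries counted tags at the 3' end of polyadenylated RNA, whereas those of the beta-catenin experiment used total RNA and a different kit, so levels of members were compared between genes in the total-RNA libraries alone, and no result rests on a level set across the experiments. No label ties a library to an animal, and p-values therefore cover the spread of these libraries, which may be technical.

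Estimated depth was 4.71 to 19.68 M reads in the stroke libraries and is not given for the other 5, and values near 1 RPKM rest on few reads. Gpr124 ranged from 2.65 to 7.58 RPKM in WT-NS, 2.92 to 8.12 in WT-ST, 0.994 to 4.85 in Cko-NS and 0.500 to 1.72 in Cko-ST, so Cko-NS overlapped its controls, and 3' tags need not lie in the deleted part. Axin2, a Wnt target, was at 44.2 to 54.5 RPKM in Bcat and 26.3 to 28.3 in WT. In the stroke experiment Axin2 was at 2.84 to 6.21 RPKM in WT-NS and 2.31 to 2.84 in Cko-NS. In the stroke hemisphere it was at 0.717 to 1.43 in WT-ST and 0.0716 to 0.409 in Cko-ST, low values that rest on few reads. The 12 endothelial markers summed to 2263 to 4042 RPKM in libraries of the stroke experiment and, on that experiment's own scale, 3637 to 4749 in the beta-catenin experiment, with none at 0. Sums over markers of other cells follow for comparison between groups, not between lists: 8 oligodendrocyte markers had 191 to 1050 RPKM in WT-NS, 30.4 to 387 in WT-ST, 45.5 to 540.0 in Cko-NS and 22.2 to 283 in Cko-ST, and 8 neuron markers had 17.2 to 26.4, 11.1 to 21.6, 11.3 to 62.6 and 6.76 to 7.85. Mural-cell sums were 45.3 to 67.0, 11.3 to 48.6, 23.3 to 32.5 and 14.7 to 102.6 RPKM in the same order, and blood leukocyte sums 0 to 7.63, 2.06 to 42.6, 8.89 to 83.7 and 4.43 to 19.7. Astrocyte, fibroblast and microglial sums were at most 84.0 RPKM, and red-cell genes (1 name for each of 3 globin pairs whose RPKM keep a ratio of 1.007, 1.012 to 1.013 and 1 over the 21 libraries, and Alas2) summed to 4589 to 8034 in WT-NS, 2067 to 5757 in WT-ST, 3238 to 21731 in Cko-NS and 824 to 10544 in Cko-ST. Sex-linked RNA went against the label in 2 libraries, Cko-NS 4 (labelled female, with Y-linked transcripts) and Cko-ST 3 (labelled male, with Xist). Every WT-NS and WT-ST library was female by label and RNA, and every Bcat and WT library male. In the Cko groups Cko-NS 4 and Cko-ST 4 were male by RNA and the rest female. Sex is therefore not balanced between the genotypes of the stroke experiment, and it differs between the experiments. Cko-NS 4 also had the highest neuron sum (62.6 RPKM) and the highest blood leukocyte sum (83.7 RPKM).

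Glycolysis splits glucose into pyruvate in the cytosol, and endothelial cells are known for making much of their ATP this way. Hypoxia-inducible factors pair an oxygen-regulated alpha subunit, encoded by Hif1a or Epas1, with a stable partner encoded by Arnt. When oxygen is present, prolyl hydroxylases encoded by the Egln genes mark the alpha subunit for breakdown, and when it is scarce the dimer binds hypoxia response elements with the core ACGTG or GCGTG and raises glycolytic enzymes, Vegfa, mitophagy receptors and other targets. The factor is thus controlled largely as protein, which RNA does not show.

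A day after stroke, Gapdh, Pgk1 and Hif1a rose and Mxi1 fell in the stroke hemisphere of both genotypes. Of the 30 tested members 8 rose (Hk1, Aldoa, Gapdh, Pgk1, Pgam1, Eno1, Hif1a and Vegfa) and 3 fell (Epas1, Bnip3l and Mxi1) in WT-ST against WT-NS, where 8.46% of the 9838 tested genes rose and 4.84% fell. In Cko-ST against Cko-NS 5 members rose (Gapdh, Pgk1, Pgam1, Hif1a and Vegfa) and 7 fell (Pdk1, Epas1, Egln1, Bnip3, Ndrg1, Ddit4 and Mxi1), where 6.44% of genes rose and 8.71% fell. Vegfa passed the filter on low values through its stroke groups alone, so its rise is not counted as support. With it set aside, a choice made after seeing the data, 7 of 29 members rose (24.1%) and 3 fell (10.3%) in WT, and 4 rose (13.8%) and 7 fell (24.1%) in Cko. These shares stand above the backgrounds in each direction, with no test of that difference. The backgrounds are over all tested genes, from which genes low in both non-stroke groups were not set aside. For members fallen in WT the order depends on the setting. Without the mean-variance trend 1 of 30 members fell there beside 421 of 9838 genes, a share not above the background. Without the libraries of doubtful sex label, Cko-NS 4 and Cko-ST 3, 5 members rose and 8 fell in Cko, and without Cko-NS 4 and Cko-ST 4, those with Y-linked RNA, 4 rose and 6 fell, Vegfa being among those risen each time. Over the tested members the median fold change (log2) was 0.06 in WT and -0.28 in Cko, beside 0.01 and -0.14 over all tested genes. In WT the median ran from -0.043 (without WT-ST 1) to 0.194 (without WT-ST 3) with 1 library left out, it moved by over 1.5 times without any WT library but WT-ST 4, and it was 0.332 with a mean RPKM filter of 5. In Cko the median ran from -0.414 (without Cko-NS 1) to -0.178 (without Cko-NS 2) with 1 library left out. It was -0.147 there after median-of-ratios scaling. In sum 5 members rose, Vegfa included, and 2 fell in both genotypes, 3 rose and 1 fell in WT alone, 5 fell in Cko alone, and 14 passed in neither. Rose and fell mean here an adjusted p under 0.05 in limma, fold changes are on the log2(RPKM + 1) scale with ± the SE of the fit, and that scale understates genes of low RPKM. In sorted bulk samples fewer cells of a type and less RNA per cell cannot be told apart.

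**Figure D1:**
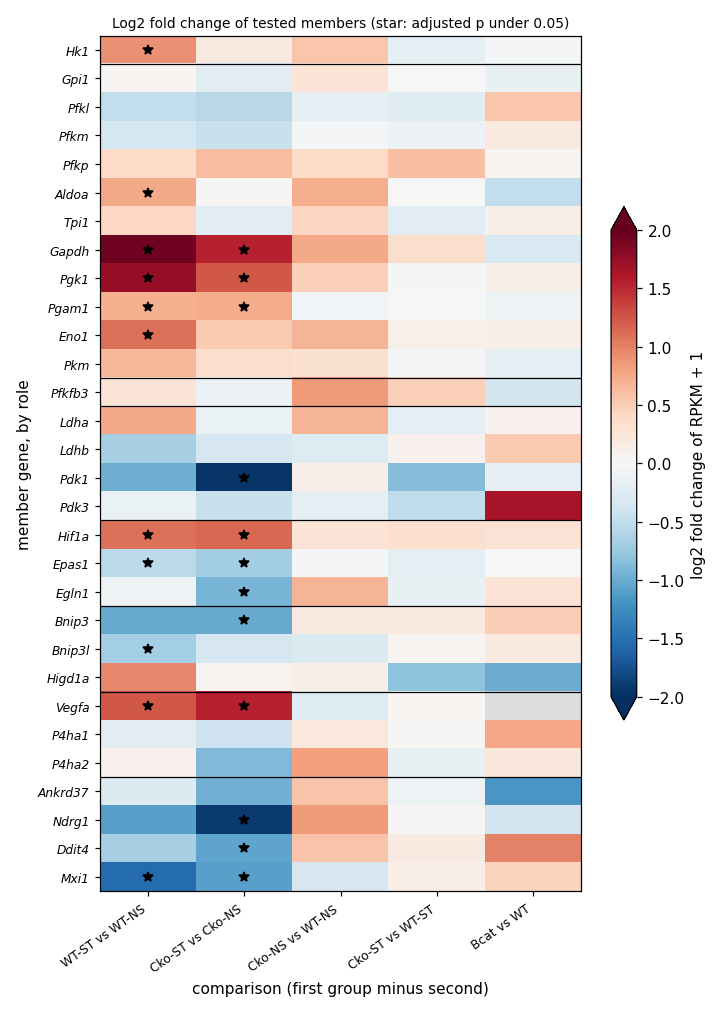
Log2 fold change (colour, log2 of RPKM + 1) of the tested members (rows, grouped by role with black lines) in each comparison (columns), with a star where the adjusted p was under 0.05 and grey where a gene was not tested. Stars stand in the 2 stroke columns alone, with red cells for Gapdh, Pgk1, Pgam1, Hif1a and Vegfa and blue cells for Epas1 and Mxi1 in both.

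Promoters are shown for the 4 members with the lowest p among those that passed in both genotypes with the same sign and held a match, since the stroke results turn on them. Each run is the 250 bases before a RefSeq transcript start (GRCm38.p6), read 5' to 3' on the gene's strand, with capitals on ACGTG and GCGTG, the core of the hypoxia response element, on either strand (CACGT and CACGC on the other strand). The Gapdh window is chr6:125165774-125166023 on the minus strand, the Hif1a window chr12:73907617-73907866, the Pgk1 window chrX:106186850-106187099 and the Mxi1 window chr19:53329163-53329412, all on the plus strand.
Gapdh: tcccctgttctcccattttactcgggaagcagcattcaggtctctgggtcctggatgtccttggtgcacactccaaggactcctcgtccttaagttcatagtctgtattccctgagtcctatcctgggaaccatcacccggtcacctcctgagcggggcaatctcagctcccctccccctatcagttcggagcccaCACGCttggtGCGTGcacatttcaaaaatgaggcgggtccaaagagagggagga
Hif1a: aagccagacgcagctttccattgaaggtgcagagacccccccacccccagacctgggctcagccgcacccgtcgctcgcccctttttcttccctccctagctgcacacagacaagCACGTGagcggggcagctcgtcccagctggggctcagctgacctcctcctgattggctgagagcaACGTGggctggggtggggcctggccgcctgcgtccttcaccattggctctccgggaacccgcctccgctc
Pgk1: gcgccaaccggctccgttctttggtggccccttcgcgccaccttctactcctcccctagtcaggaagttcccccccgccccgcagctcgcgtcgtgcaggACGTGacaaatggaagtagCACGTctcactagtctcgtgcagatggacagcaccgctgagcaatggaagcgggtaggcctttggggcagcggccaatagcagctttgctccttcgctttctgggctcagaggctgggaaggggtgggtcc
Mxi1: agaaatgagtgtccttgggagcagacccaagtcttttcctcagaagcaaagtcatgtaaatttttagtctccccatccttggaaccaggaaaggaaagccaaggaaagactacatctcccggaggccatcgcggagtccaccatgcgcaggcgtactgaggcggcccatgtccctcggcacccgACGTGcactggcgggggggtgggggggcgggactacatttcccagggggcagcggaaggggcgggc
Gapdh (gene at chr6:125161715-125166467, minus strand) has 2 matches, Hif1a (chr12:73901375-73947530, plus strand) has 3 with a palindromic pair counted on each strand, Pgk1 (chrX:106187100-106203699, plus strand) has 2 and Mxi1 (chr19:53310518-53375810, plus strand) has 1. The windows of Gapdh, Hif1a and Mxi1 lie within the annotated span of the gene, after an earlier start. Whether a window overlaps an exon was not tested. A core of either kind was found in 39 of 49 windows of 33 members (79.6%), against 12679 of 32851 windows of all genes (38.6%) and 44.0% of windows of protein-coding genes. For ACGTG alone the shares were 49.0%, 16.6% and 17.8%. Several members, such as Pgk1, are textbook targets by which the element was defined, windows of a gene overlap, and Gapdh and Hif1a, which rose, hold cores as Mxi1, which fell, does. A match is a description of these letters and not a binding site. Bnip3l, Ndrg1 and Epas1 had no entry.

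Hexokinase and the glycolytic enzymes rose in part. Of 11 tested glycolytic enzymes after hexokinase, 5 rose in WT and 3 in Cko and none fell, with a median log2 fold change of 0.67 in WT and 0.35 in Cko. Gapdh, which oxidises glyceraldehyde 3-phosphate, was at 33.7, 33.9, 55.3 and 26.7 RPKM in WT-NS and 137, 109.5, 118 and 230.1 in WT-ST. In Cko-NS Gapdh was at 44.5, 57.3, 62.8 and 89.1 and in Cko-ST at 154, 229.8, 151 and 201. Every stroke library was above every non-stroke library of its genotype, and WT-ST 4 and Cko-ST 2 were the highest. The log2 fold changes of Gapdh were 1.95 ± 0.26 (adjusted p = 8.08e-05) in WT and 1.54 ± 0.26 (adjusted p = 0.000657) in Cko, so this common reference gene for RNA levels is no constant here, and it rose under each scaling tried. Pgk1, the X-linked ATP-making phosphoglycerate kinase, was at 24.8, 25.3, 13.1 and 13.5 RPKM in WT-NS and 77.7, 46.1, 70.6 and 63.01 in WT-ST. Its Cko-NS values were 21.4, 24.9, 24.2 and 33.8 and its Cko-ST values 58, 81.1, 64.6 and 48.6. Stroke and non-stroke libraries did not overlap in either genotype. Pgk1 rose by 1.74 ± 0.25 (adjusted p = 0.000136) in WT and 1.24 ± 0.25 (adjusted p = 0.00242) in Cko on the log2 scale, and by 1.48 (adjusted p = 0.0021) in Cko without the libraries with Y-linked RNA, Cko-NS 4 and Cko-ST 4.

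Pgam1, phosphoglycerate mutase, was at 53.97, 32.8, 23.9 and 38.2 RPKM in WT-NS and 66.2, 59.5, 51.5 and 59.2 in WT-ST. For Cko mice it was at 34.7, 40.7, 33.4 and 29.3 in the non-stroke and 64.6, 62.8, 49.5 and 57.2 in the stroke hemisphere. WT-NS 1 overlapped the WT-ST libraries and the others did not. Its log2 fold changes were 0.71 ± 0.21 (adjusted p = 0.0301) and 0.75 ± 0.21 (adjusted p = 0.0203). Pgam1's call in WT ended without WT-NS 2, WT-NS 3, WT-ST 1, WT-ST 2 or WT-ST 4, 1 library at a time (adjusted p 0.0592 to 0.101) and without the mean-variance trend (adjusted p 0.0528). In Cko it ended without Cko-NS 4, Cko-ST 1 or Cko-ST 2, 1 library at a time (adjusted p 0.0515 to 0.0603) and without Cko-NS 4 and Cko-ST 4 (adjusted p 0.0758).

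Hk1, the hexokinase of these cells, Aldoa, the aldolase, and Eno1, an enolase, rose in WT. Another enolase gene outside the members, Eno3, averaged 7.84 RPKM in WT-NS beside 14.1 for Eno1, and it fell in both genotypes, as given below. Hk1 was at 5.57, 5.42, 5.17 and 5.01 RPKM in WT-NS and 10.1, 8.99, 7.63 and 19.9 in WT-ST. In the Cko mice its values were 5.42, 7.51, 9.55 and 11.5 in Cko-NS and 8.70, 10.3, 9.41 and 9.52 in Cko-ST. The WT groups did not overlap, with WT-ST 4 far above the rest, and the Cko groups did. Hk1 changed by 0.92 ± 0.27 on the log2 scale in WT (adjusted p = 0.0324) and by 0.19 ± 0.27 in Cko (adjusted p = 0.695). Aldoa was at 82.6, 87.9, 55.7 and 88.9 RPKM in WT-NS and 145, 113, 93.2 and 198 in WT-ST. Its Cko-NS libraries read 96.2, 123, 139 and 169 and its Cko-ST libraries 102, 152, 118 and 160.3. The WT groups were apart, and Cko-NS overlapped both stroke groups. Aldoa's log2 fold changes were 0.76 ± 0.24 (adjusted p = 0.0420) in WT and 0.02 ± 0.24 (adjusted p = 0.971) in Cko. Eno1 was at 20.7, 16.6, 7 and 12.2 RPKM in WT-NS and 40.5, 30.9, 17.1 and 34.3 in WT-ST. Eno1 in Cko mice was at 17.8, 24.5, 21.3 and 23.6 in the non-stroke and 21.9, 45.2, 27.1 and 35.8 in the stroke hemisphere. WT-NS 1 was above WT-ST 3 and no other pair of WT libraries crossed. The log2 fold changes of Eno1 were 1.10 ± 0.31 (adjusted p = 0.0248) in WT and 0.52 ± 0.31 (adjusted p = 0.283) in Cko.

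None of these 3 calls in WT held under every alternative. Hk1's call ended without WT-NS 1, WT-NS 2, WT-NS 3, WT-NS 4, WT-ST 1 or WT-ST 4, 1 library at a time (adjusted p 0.0557 to 0.108). Aldoa's call ended without WT-NS 1, WT-NS 2, WT-NS 3, WT-NS 4, WT-ST 1, WT-ST 4, Cko-NS 2 or Cko-NS 3, 1 library at a time (adjusted p 0.0508 to 0.138), after quantile normalization (adjusted p 0.0756), with no filter on low values (adjusted p 0.0913) and without the mean-variance trend (adjusted p 0.0750). Eno1's call ended without WT-NS 3, WT-NS 4, WT-ST 1, WT-ST 2 or WT-ST 4, 1 library at a time (adjusted p 0.0549 to 0.0848) and with no filter on low values (adjusted p 0.0572). The table holds rows of Eno1b, a near-identical gene, and glycolytic enzymes have processed pseudogenes, so how reads were split between copies is uncertain.

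The other 6 tested enzymes passed in neither genotype. Gpi1 changed by 0.04 in WT (95% interval -0.50 to 0.57) and -0.23 in Cko (-0.77 to 0.31). For Tpi1 the values were 0.42 (-0.32 to 1.16) and -0.22 (-0.96 to 0.52), and for pyruvate kinase, Pkm, 0.67 (-0.15 to 1.49) and 0.35 (-0.47 to 1.17). In WT the intervals of Tpi1 and Pkm reach past the rises of Pgam1 and Aldoa, so these data do not set them apart. The 3 phosphofructokinase genes, the main point of control, differed in sign: Pfkl was at -0.50 and -0.55, Pfkm at -0.36 and -0.45, and Pfkp at 0.41 and 0.62. Pfkl and Pfkm had group means under 1 RPKM in 2 and 1 of the 4 groups.

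**Figure D2:**
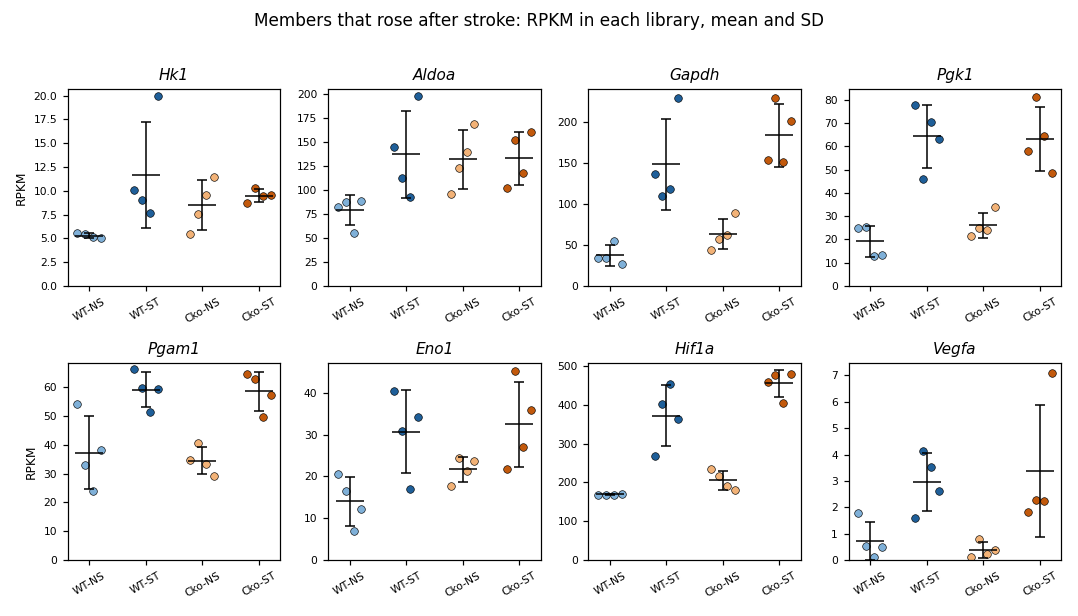
RPKM (vertical axis, from 0) of the 8 members that rose in at least 1 genotype, with 1 point per library (n = 4 per group), the mean as a bar and the SD as whiskers. Gapdh, Pgk1 and Hif1a are apart between non-stroke and stroke groups in both genotypes, and WT-ST 4 is the highest WT-ST library for Hk1, Aldoa and Gapdh.

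Of 4 tested genes that direct pyruvate and lactate 1 fell, in Cko, and none rose. Pdk1, a kinase that shuts pyruvate dehydrogenase and keeps pyruvate from the mitochondrion, was at 10.2, 9.004, 13.9 and 8.17 RPKM in WT-NS and 6.77, 5.61, 4.92 and 2.38 in WT-ST. Pdk1 in Cko-NS was at 14.2, 13.8, 9.71 and 7.58 and in Cko-ST at 6.96, 1.22, 3.60 and 0.128. Stroke libraries were below non-stroke libraries in both genotypes, and Cko-ST 4 was near 0. It fell in Cko (-1.96 ± 0.46, adjusted p = 0.00694), with a log2 fold change of -0.97 ± 0.46 in WT (adjusted p = 0.178). Ldha, the lactate dehydrogenase subunit that HIF raises in many cells, was at 16.8, 30.2, 31.7 and 15.8 RPKM in WT-NS and 37.7, 35.6, 21.99 and 74.1 in WT-ST. Its Cko values were 64.9, 36.98, 47.8 and 15.8 in Cko-NS and 31.8, 35.5, 36.5 and 30.5 in Cko-ST. The groups overlapped, WT-ST 4 was the highest of all, and the log2 fold changes were 0.75 ± 0.38 (adjusted p = 0.214) and -0.13 ± 0.38 (adjusted p = 0.848). Ldhb, the other subunit, X-linked Pdk3 and Pfkfb3, which makes the activator of phosphofructokinase, passed in neither genotype, with log2 fold changes between -0.67 (Ldhb in WT) and 0.26 (Pfkfb3 in WT).

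The 2 HIF alpha subunits moved in opposite directions. Hif1a was at 168, 168, 169 and 171 RPKM in WT-NS and 268, 403, 455 and 363 in WT-ST. In Cko-NS it was at 234, 217, 192 and 181 and in Cko-ST at 460.0, 478, 404 and 480.2. Non-stroke libraries of WT lay within a few RPKM of each other, and stroke libraries were above non-stroke libraries in both genotypes. The rise of Hif1a was 1.11 ± 0.15 (adjusted p = 9.30e-05) in WT and 1.15 ± 0.15 (adjusted p = 7.40e-05) in Cko on the log2 scale. Epas1 (chr17:86753700-86833410, plus strand), which encodes HIF-2alpha and is the endothelial member of the pair, was at 679, 881, 564 and 765 RPKM in WT-NS and 496, 526, 398 and 564 in WT-ST. Its Cko-NS libraries had 642, 796, 734 and 649.8 and its Cko-ST libraries 475, 395, 512 and 368. Every stroke library was below every non-stroke library of its genotype, in WT only just between WT-ST 4 and WT-NS 3. Epas1 fell in both, with log2 fold changes of -0.53 ± 0.16 (adjusted p = 0.0336) in WT and -0.69 ± 0.16 (adjusted p = 0.00649) in Cko.

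Epas1's call in WT ended without WT-NS 1, WT-NS 2, WT-NS 4, WT-ST 1 or WT-ST 3, 1 library at a time (adjusted p 0.0552 to 0.113), with no filter on low values (adjusted p 0.0682) and without the mean-variance trend (adjusted p 0.0945), while the calls of Hif1a in both genotypes and of Epas1 in Cko held under every alternative. Egln1, the main prolyl hydroxylase, was at 5.89, 9.63, 9.57 and 6.16 RPKM in WT-NS and 6.17, 6.80, 7.29 and 8.14 in WT-ST. In Cko it was at 22.6, 10.2, 15 and 7.75 in the non-stroke and 4.64, 7.41, 7.53 and 5.86 in the stroke hemisphere. The WT groups overlapped, the Cko groups did not, and Cko-NS 1 was the highest library. Egln1 fell in Cko (-0.93 ± 0.29, adjusted p = 0.0366) and its log2 fold change in WT was -0.10 ± 0.29 (adjusted p = 0.879). Egln1's call ended without Cko-NS 1, Cko-NS 3, Cko-ST 1, Cko-ST 2 or Cko-ST 4, 1 library at a time (adjusted p 0.0535 to 0.120), after median-of-ratios scaling (adjusted p 0.0755), after quantile normalization (adjusted p 0.0975), with no filter on low values (adjusted p 0.0550) and with the replicate block (adjusted p 0.0587).

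Each of the 2 mitophagy receptors fell in 1 genotype. Bnip3l was at 69.1, 76.7, 80.9 and 75.1 RPKM in WT-NS and 53.4, 59.9, 35.8 and 40.95 in WT-ST. In Cko-NS Bnip3l was at 52.2, 54.9, 84.6 and 59.1 and in Cko-ST at 49.9, 36.03, 59.4 and 52. The WT groups did not overlap and the Cko groups did. Bnip3l fell in WT (-0.68 ± 0.20, adjusted p = 0.0324) and had -0.33 ± 0.20 (adjusted p = 0.288) in Cko. Its relative Bnip3 was at 65.1, 76.5, 89.3 and 42.8 RPKM in WT-NS and 43.9, 52.9, 20.6 and 22.7 in WT-ST. Bnip3 in Cko mice was at 61.4, 97.6, 103 and 51.9 in the non-stroke and 37.8, 25.4, 60.3 and 31.9 in the stroke hemisphere. WT-NS 4 was below 2 of the WT-ST libraries and Cko-NS 4 below Cko-ST 3. Bnip3 had nearly the same fold change in both genotypes, -1.01 ± 0.33 in WT (adjusted p = 0.0534) and -1.01 ± 0.33 in Cko (adjusted p = 0.0491), on either side of the threshold. Higd1a, a respiratory-chain assembly factor, passed in neither (0.97 ± 0.41 in WT and 0.05 ± 0.41 in Cko), with 64.0 RPKM in WT-ST 4 and 20.8 to 27.1 in the other WT-ST libraries.

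Bnip3l's call in WT ended without WT-NS 2, WT-NS 3, WT-NS 4, WT-ST 3 or WT-ST 4, 1 library at a time (adjusted p 0.0642 to 0.109) and without the mean-variance trend (adjusted p 0.0593). The Bnip3 call in Cko ended without WT-NS 1, WT-NS 2, WT-NS 3, WT-ST 1, Cko-NS 1, Cko-NS 2, Cko-NS 3, Cko-ST 1, Cko-ST 2 or Cko-ST 4, 1 library at a time (adjusted p 0.0509 to 0.147), after median-of-ratios scaling (adjusted p 0.0841), after quantile normalization (adjusted p 0.0630), with a pseudocount of 0.1 (adjusted p 0.0518), with no filter on low values (adjusted p 0.114), without the mean-variance trend (adjusted p 0.0695) and without Cko-NS 4 and Cko-ST 4 (adjusted p 0.0711). In WT Bnip3 passed without WT-NS 4, WT-ST 2, Cko-NS 4 or Cko-ST 3, 1 library at a time (adjusted p 0.0254 to 0.0463), after median-of-ratios scaling (adjusted p 0.0423), after quantile normalization (adjusted p 0.0410), with a mean RPKM filter of 5 (adjusted p 0.0385) and with the replicate block (adjusted p 0.0274). Red-cell genes, whose parent cells use Bnip3l for mitophagy, were also lower after stroke in most libraries (2067 to 5757 summed RPKM in WT-ST against 4589 to 8034 in WT-NS), and their part in the result was not tested.

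Among secreted and matrix genes Vegfa (chr17:46016993-46032369, minus strand), the main endothelial growth factor, rose from near 0. It was at 1.78, 0.519, 0.0965 and 0.510 RPKM in WT-NS and 1.60, 4.13, 3.51 and 2.60 in WT-ST. Cko-NS libraries were at 0.133, 0.802, 0.228 and 0.387 and Cko-ST libraries at 1.83, 2.28, 2.24 and 7.10. WT-NS 1 overlapped WT-ST, the Cko groups were apart, and Cko-ST 4 was the highest. Vegfa passed the filter on low values through the stroke groups alone (both non-stroke means are under 1), so it had to differ to be tested, and its log2 fold changes of 1.24 ± 0.37 (adjusted p = 0.0324) and 1.53 ± 0.37 (adjusted p = 0.00860) are understated. In WT the Vegfa call ended without WT-NS 2, WT-NS 3, WT-NS 4, WT-ST 2, WT-ST 3 or WT-ST 4, 1 library at a time (adjusted p 0.0551 to 0.0980), with no filter on low values (adjusted p 0.0663) and with the replicate block (adjusted p 0.0526). P4ha1 and P4ha2, subunits of the collagen prolyl hydroxylases, passed in neither genotype: P4ha1 had -0.23 and -0.42, and P4ha2 0.09 and -0.88 (adjusted p = 0.0576 in Cko, and 0.0216 without Cko-NS 2).

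The remaining 4 hypoxia targets, genes that HIF is known to raise, had negative fold changes after stroke in both genotypes, and 1 fell in WT and 3 in Cko. Mxi1, a repressor that opposes MYC, was at 67.5, 66.3, 61.3 and 33.3 RPKM in WT-NS and 22.8, 24.4, 11.8 and 16.96 in WT-ST. In Cko-NS Mxi1 was at 42.2, 46.8, 36.5 and 48.02 and in Cko-ST at 19.6, 12.8, 21.3 and 29.03. Neither pair of groups overlapped, and WT-NS 4 was the lowest of its group. Its log2 fold changes were -1.54 ± 0.27 (adjusted p = 0.00103) in WT and -1.08 ± 0.27 (adjusted p = 0.0124) in Cko, where the call ended without Cko-ST 2 (adjusted p 0.0506). Ndrg1 (chr15:66929318-66969640, minus strand), a stress-response gene, was at 101, 105, 79.03 and 60.6 RPKM in WT-NS and 57.7, 47.8, 15.9 and 53.2 in WT-ST. Its Cko-NS values were 191, 159.6, 197 and 90.9 and its Cko-ST values 62.3, 30.8, 75.1 and 17.4. Both pairs of groups were apart, with WT-ST 3 and Cko-ST 4 lowest. Ndrg1 fell in Cko (-1.91 ± 0.43, adjusted p = 0.00523), and in WT its log2 fold change was -1.09 ± 0.43 (adjusted p = 0.103, and 0.022 with the replicate block). Ndrg1 is also a myelin-cell gene, oligodendrocyte sums were lower after stroke as given above, and their part was not tested.

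Ddit4, an inhibitor of mTORC1, was at 100.1, 96.6, 104 and 141 RPKM in WT-NS and 79.95, 52.6, 45.2 and 118 in WT-ST. Ddit4 in Cko mice was at 171, 138, 207 and 142 in the non-stroke and 72.4, 64.8, 114 and 69.03 in the stroke hemisphere. WT-ST 4 overlapped WT-NS, and the Cko groups were apart. It fell in Cko (-1.05 ± 0.26, adjusted p = 0.0105) and had -0.66 ± 0.26 in WT (adjusted p = 0.105), where it passed without WT-ST 4 (adjusted p 0.0188), after quantile normalization (adjusted p 0.0467) and with the replicate block (adjusted p 0.0232). Ankrd37, an ankyrin-repeat protein and HIF target, had -0.28 ± 0.34 in WT (adjusted p = 0.666) and -0.95 ± 0.34 in Cko (adjusted p = 0.0679). In Cko it passed without WT-ST 3, Cko-NS 4 or Cko-ST 3, 1 library at a time (adjusted p 0.0291 to 0.0484), with the replicate block (adjusted p 0.0252) and without Cko-NS 4 and Cko-ST 3 (adjusted p 0.0158).

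**Figure D3:**
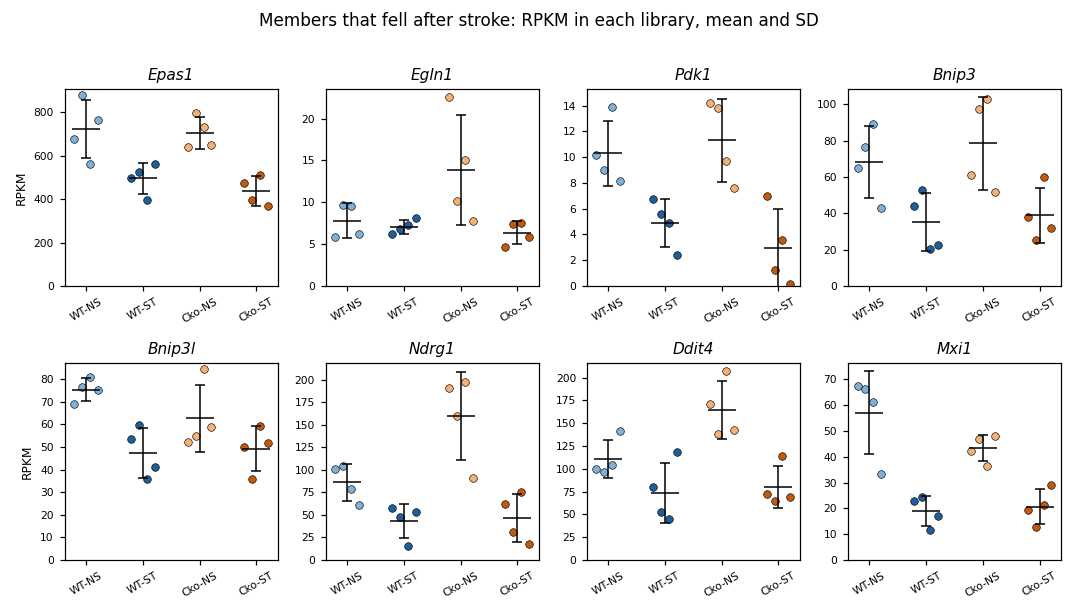
RPKM (vertical axis, from 0) of the 8 members that fell in at least 1 genotype, with 1 point per library (n = 4 per group), the mean as a bar and the SD as whiskers. Epas1, Pdk1, Ndrg1 and Mxi1 are lower in every stroke library than in every non-stroke library of the same genotype, and Cko-NS libraries of Ndrg1 and Ddit4 reach above those of WT-NS.

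The 6 members under a mean of 1 RPKM in the stroke experiment were not tested. Hk2, Slc16a3 (the lactate exporter MCT4) and Egln3 stayed under 1 RPKM in every stroke library but Cko-ST 4, where Egln3 was at 2.49. Pfkfb4 was at 7.25 RPKM in WT-ST 4 and at most 0.256 in every other stroke library. Eno2 and Aldoc, genes also counted among the neuron and astrocyte markers, reached 2.51 RPKM in Cko-ST 1 and 6.21 in WT-NS 4.

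Whether the stroke effect differed between genotypes was tested as an interaction. By limma 0 of 30 members and 0 of 9838 genes passed (0.0%), and at an unadjusted p under 0.05 there were 2 members and 691 genes (7.02%). These members were Aldoa (-0.74 ± 0.34, adjusted p = 0.697) and P4ha2 (-0.96 ± 0.43, adjusted p = 0.682). The members that passed in 1 genotype alone are thus not shown to differ: Hk1 had -0.73 ± 0.39 (adjusted p = 0.725), Eno1 -0.58 ± 0.44 (adjusted p = 0.815), Bnip3l 0.35 ± 0.29 (adjusted p = 0.840) and Pdk1 -0.98 ± 0.64 (adjusted p = 0.783). For Egln1 the difference was -0.84 ± 0.41 (adjusted p = 0.708), for Ndrg1 -0.83 ± 0.60 (adjusted p = 0.807) and for Ddit4 -0.39 ± 0.37 (adjusted p = 0.862). The median of the members was -0.35 beside -0.14 over all genes, but -0.187 beside -0.122 without WT-ST 4 and -0.22 beside -0.124 without WT-NS 3. After median-of-ratios scaling, which sets the libraries' typical gene equal, it was -0.20 beside -0.001. This scaling also moved the median of all genes in the Cko stroke comparison from -0.14 to -0.02, where 5 members then rose and 5 fell and all genes split 843 up to 627 down.

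Between genotypes no member passed in the non-stroke hemisphere. The Cko-NS values of Aldoa, Pfkfb3 and Hif1a listed or drawn here lay above every WT-NS library. The share of all genes that separate in this way was not counted, so no result is drawn from it. Pfkfb3 was at 11.4, 9.98, 4.75 and 4.35 RPKM in WT-NS and 12.8, 13.5, 16.6 and 11.9 in Cko-NS, and P4ha2 at 5.67, 4.22, 4.15 and 8.11 and 10.2, 5.83, 10.8 and 16.6. By limma 0 of 30 members passed, where 0.224% of genes were higher and 0.0915% lower. At an unadjusted p under 0.05 there were 7 of 30 members, all higher in Cko-NS, where 10.7% of genes were higher and 3.62% lower. These were Aldoa (0.73 ± 0.24, adjusted p = 0.171), Gapdh (0.75 ± 0.26, 0.200), P4ha2 (0.82 ± 0.30, 0.222), Pfkfb3 (0.86 ± 0.36, 0.289), Egln1 (0.68 ± 0.29, 0.293), Ddit4 (0.57 ± 0.26, 0.329) and Eno1 (0.68 ± 0.31, 0.330).

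The median log2 fold change of the members in Cko-NS against WT-NS was 0.29, beside 0.11 over all genes, and 21 of 30 members were above 0 (70%, beside 60.5% of genes, a share near the background). With median-of-ratios scaling it was 0.16 beside -0.004, with 19 of 30 above 0, and after quantile normalization 0.18 beside -0.01. Scaling thus lowered both medians, and the distance between both medians was 0.18 as deposited and 0.16 after scaling. With a mean RPKM filter of 5 the members' median was 0.45 beside 0.09, a distance of 0.36. With 1 library left out the members' median ran from 0.26 (without Cko-NS 2) to 0.405 (without WT-NS 2), so its size depends on the setting. Without Cko-NS 4, whose sex-linked RNA went against its label, and Cko-ST 3 the members' median was 0.34. Glycolysis enzymes and Hk1 together averaged 3.87, 3.82, 3.34 and 3.55 on the log2(RPKM + 1) scale in WT-NS and 3.54, 4.12, 4.06 and 4.31 in Cko-NS, so Cko-NS 1 lay within WT-NS and the other 3 above it. In the stroke hemisphere 0 members and 0 of 9838 genes (0.0%) passed between genotypes, with 0 members and 4.84% of genes at an unadjusted p under 0.05. The members' median there was -0.01 beside -0.03 over all genes, and 0.02 beside -0.003 after scaling. The 4 comparisons of the stroke experiment share libraries, so their values are not independent of each other.

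**Figure D4:**
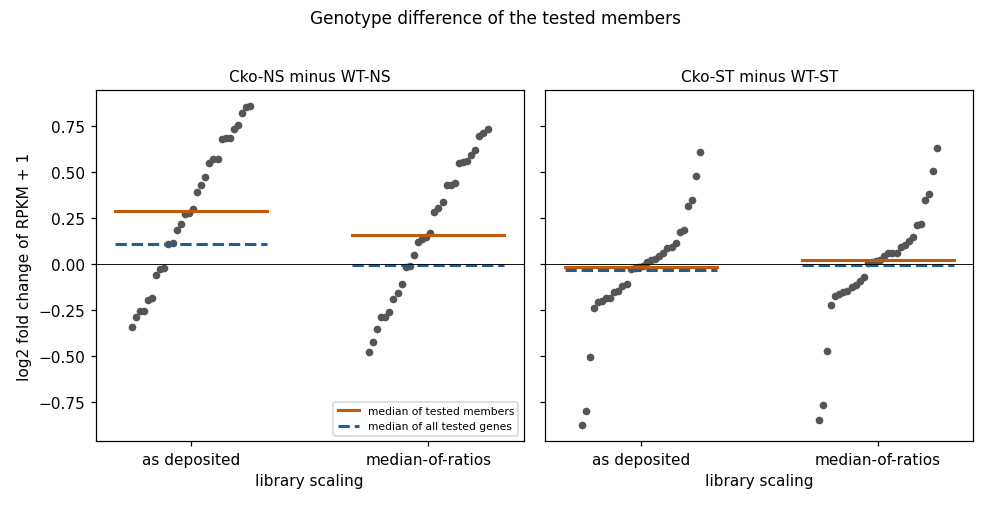
Log2 fold change of each tested member (points, ordered by value) between Cko and WT in the non-stroke (left) and stroke hemisphere (right), as deposited and after median-of-ratios scaling, with the median of the members (solid line) and of all tested genes (dashed line). In the non-stroke hemisphere the members' median goes from 0.29 to 0.16 and that of all genes from 0.11 to -0.004, and in the stroke hemisphere all 4 lines lie near 0.

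Stabilised beta-catenin without stroke left no member changed by the test. By limma 0 of 29 members and 0 of 11252 genes passed (0.0%) between Bcat and WT, and 1 member and 5.24% of genes had an unadjusted p under 0.05. This member was Pdk3, at 4.36, 7.73 and 10.5 RPKM in Bcat and 2.94 and 0.716 in WT (1.65 ± 0.62, adjusted p = 0.911). Gapdh was at 135, 101 and 147 RPKM in Bcat and 140.2 and 171 in WT (-0.30 ± 0.25), and Aldoa at 29.4, 30.9 and 43.1 and 43.9 and 53.5 (-0.50 ± 0.29). Hif1a was at 24.3, 50.97 and 34.1 and 30.1 and 26.6 (0.29 ± 0.35), and Epas1 at 472, 564 and 804 and 615 and 583 (-0.002 ± 0.26, 95% interval -0.59 to 0.59). Mxi1 was higher in each Bcat library (10.3, 7.84 and 8.59 RPKM) than in WT (5.69 and 6.75), with 0.45 ± 0.43 on the log2 scale (adjusted p = 0.969). The members' median was 0.11 beside -0.06 over all genes, and it was -0.02 with the replicate block or without Bcat 3, 0.03 without WT 2, and 0.06 without Bcat 1 or Bcat 2. Red-cell sums were 13075 to 25879.9 RPKM in Bcat and 11750.2 to 12472 in WT, and mural sums 26.4 to 100.8 and 26.6 to 31.8, and their part was not tested. With 3 libraries against 2 the intervals are wide, and only large changes could have passed.

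Across these 5 total-RNA libraries, where levels of genes can be compared per length, Epas1 had the highest RPKM of the 36 members at 608 ± 122 (SD, n = 5, range 472 to 804). Ndrg1 followed at 203 ± 55.1, Gapdh at 139 ± 25.5 and Bnip3l at 96.8 ± 18.7, and the ranges of Ndrg1 and Gapdh overlapped, as those of Gapdh and Bnip3l did. Ldha, Pgam1, Ddit4, Aldoa, Eno1, Pkm, Hif1a and Bnip3 came next with means from 57.2 down to 29.5 RPKM and ranges that overlapped from each to its neighbour. Hif1a was at 24.3 to 51.0 RPKM, below every Epas1 value. At the low end Pdk1 had 1.91 ± 0.929 RPKM, Vegfa 0.178 ± 0.281, and Hk2 and Egln3 were listed at 0 in all 5. Within isoenzyme families, counting members alone, Hk1 made up all of Hk1 and Hk2 and Aldoa at least 97.3% of Aldoa and Aldoc. Eno1 made up at least 97.7% of Eno1 and Eno2, and Ldha 78.3 to 93.0% of Ldha and Ldhb. Eno3, an enolase gene outside the 36 members, is left out of that share. It was at 9.43, 2.565 and 11.49 RPKM in Bcat and 2.619 and 4.392 in WT, beside 17.5 to 69.8 for Eno1. Phosphofructokinase was mixed, with Pfkl at 26.0 to 50.6%, Pfkm at 22.8 to 39.5% and Pfkp at 13.9 to 43.5% of the 3 genes' RPKM.

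**Figure D5:**
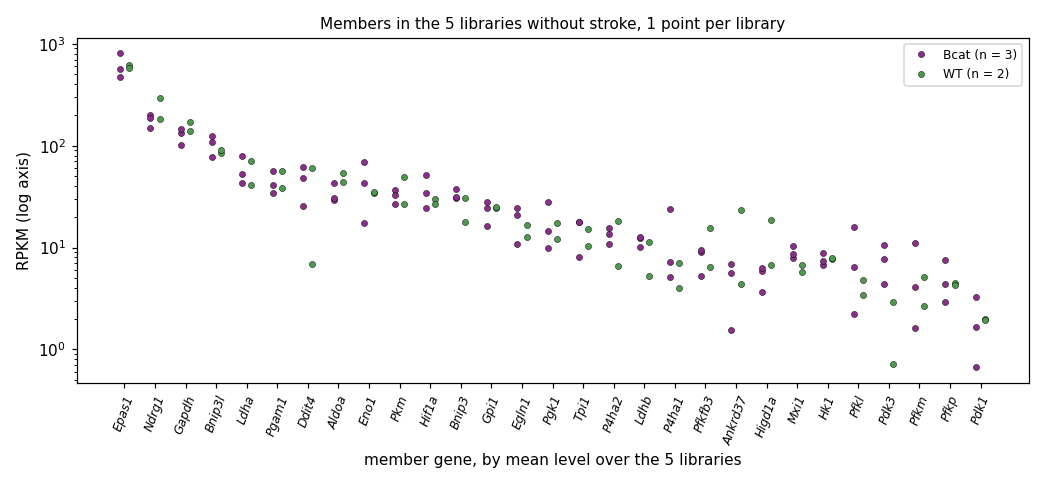
RPKM (log axis) of the 29 tested members in the total-RNA libraries, ordered by mean, with 1 point per library of Bcat (n = 3) and WT (n = 2). Epas1 stands highest at 472 to 804 RPKM, and the points of both groups are mixed for most genes.

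Neighbouring pathways gave a frame for these values. Of 17 other tested genes of glucose and pyruvate handling 0 rose in either genotype and 3 fell in WT and 4 in Cko. Slc16a1, the lactate and pyruvate carrier MCT1 of the blood-brain barrier, was at 1291, 2153, 2003 and 1970.0 RPKM in WT-NS and 633, 895, 531 and 643 in WT-ST. In Cko it was at 754, 1137, 663 and 847 in the non-stroke and 432, 300.1, 372 and 468 in the stroke hemisphere, so that all 4 groups were apart except WT-ST and Cko-NS. It fell after stroke in WT (-1.46 ± 0.21, adjusted p = 0.000129) and Cko (-1.10 ± 0.21, adjusted p = 0.00141), and it was lower in Cko-NS than in WT-NS (-1.13 ± 0.21, adjusted p = 0.0213). Slc2a1, the barrier's glucose transporter, fell in Cko (-1.13 ± 0.24, adjusted p = 0.00410) and had -0.68 ± 0.24 in WT (adjusted p = 0.0713). Gpd2, the mitochondrial glycerol 3-phosphate dehydrogenase, fell in both (-1.01 ± 0.21 and -0.92 ± 0.21), as did Eno3, the muscle enolase (-1.999 ± 0.55 and -2.26 ± 0.55), named after its values were seen to complete the counts. The list's median was -0.08 in WT and -0.06 in Cko.

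Of 8 other HIF regulators 1 fell in WT, the coactivator gene Crebbp (-0.97 ± 0.29, adjusted p = 0.0333), and 0 passed in Cko (medians -0.22 and -0.62). Of 19 further hypoxia targets 5 rose and 3 fell in WT, and 4 rose and 4 fell in Cko (medians 0.11 and 0.07), where 1 gene risen in both had passed the filter through its stroke groups alone. Edn1, the vasoconstrictor endothelin 1, rose by 1.89 ± 0.25 in WT and 1.94 ± 0.25 in Cko, and Tfrc, the transferrin receptor, fell (-1.67 ± 0.22 and -0.79 ± 0.22). In the tricarboxylic acid cycle 3 of 16 genes rose in WT, Idh3a (1.47 ± 0.26), Dlst (1.28 ± 0.34) and Sdhd (0.95 ± 0.31, also named to complete the count), and 1 in Cko, Cs (0.82 ± 0.25), with medians of 0.52 and -0.09. Of 7 genes of the pentose phosphate pathway, which branches from glycolysis, 2 rose in WT, Taldo1 (1.70 ± 0.31, adjusted p = 0.00130) and Pgd (1.32 ± 0.38, adjusted p = 0.0292), and 0 passed in Cko (medians 0.71 and 0.29). These medians stand beside 0.01 in WT and -0.14 in Cko over all tested genes. The counts of all these lists stand beside 8.46% of genes risen and 4.84% fallen in WT, and 6.44% and 8.71% in Cko. For the tricarboxylic acid cycle in Cko, 1 of 16 (6.25%) is near the share of all genes. None of these lists had a gene past the threshold in Bcat against WT.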

How the data were processed

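RNA was sequenced from sorted brain endothelial cells in 21 libraries. The authors deposited RPKM values, 1 column per library, and per the submitters' processing notes used edgeR and the mm10 build. The aligner, annotation and gene lengths were not given in the sources used here. Of 24260 rows, 24206 had a name of their own and were kept, 54 rows with 23 repeated names were dropped, and 5862 of all rows were 0 throughout. A further 8 columns of no described sample were not used. Depth was taken to be the read number at which low values of 3361 short genes came closest to whole reads (23.0 to 31.5% whole within 0.03 reads, against 6% by chance).

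Tests were run with limma 3.58.1 (R 4.3.3) and log2(RPKM + 1) values (two-sided, eBayes with trend, Benjamini-Hochberg over all genes, threshold 0.05), with genes of mean RPKM of at least 1. The 16 stroke libraries were fitted together as 4 groups, and the other 5 apart from them as 2. The script was checked on simulated data. The members and the lists of other pathway genes were chosen with earlier results of these data known. Named beside the members were up to 3 genes per list past the threshold with the lowest p in a stroke comparison. A gene that this rule names is not reported here. Alternatives were median-of-ratios scaling, quantile normalization, a pseudocount of 0.1, other filters, no trend, a replicate block and each library left out. Same-numbered hemispheres had r of 0.101, 0.134, 0.214 and 0.105 across genes in Cko and 0.0986, 0.13, 0.0721 and 0.0117 in WT. Libraries of different genotypes, which cannot share a mouse, reached 0.168 (WT-ST 2 with Cko-ST 3) and 0.104 (WT-NS 2 with Cko-NS 3). These values do not settle which libraries share a mouse, and no label does. The replicate block within genotype paired same-numbered hemispheres in both genotypes, and the main fit paired none. Promoter sequences came from RefSeq (GRCm38.p6), 33 members matching, and gene coordinates from GENCODE (GRCm38).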

Additional observations from a re-analysis of the deposited data

Results flagged for a closer look

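In 7 of 120 groups of 4 libraries 1 library of a member stood far from the other 3, where chance flags about 1 in 20 groups, or 6. Low against its group were Gpi1 in WT-ST 3 (12.1 RPKM, the others 21.5 to 23.2), Aldoa in WT-NS 3 (55.7, the others 82.6 to 88.9), Ndrg1 in WT-ST 3 (15.9, the others 47.8 to 57.7), Mxi1 in WT-NS 4 (33.3, the others 61.3 to 67.5) and P4ha2 in Cko-ST 4 (3.35, the others 5.63 to 6.14). High were Vegfa in Cko-ST 4 (7.10, the others 1.83 to 2.28) and Pfkl in Cko-NS 4 (2.16, the others 1.08 to 1.21).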

How the results depend on the processing

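Across all alternatives no direction of a called result reversed. Of 405 values that answer a comparison, recomputed as planned, 389 stayed within 1.5 times (counts) or the spread (medians). That spread was 0.28 for medians in the stroke experiment. The WT stroke median, 0.061 as reported, thus counted as unchanged at -0.043 without WT-ST 1. Counts of called members were 0 under every alternative in the genotype, interaction and Bcat comparisons, and they are among the 389. This share is therefore no measure of how firm the results are. Members risen in WT after stroke, 8 as reported, were 5 with no filter on low values and 3 to 8 with 1 library left out (3 without WT-NS 3 or WT-ST 4). Members fallen in WT, 3 as reported, were 1 without the mean-variance trend, 5 after quantile normalization, 6 with the replicate block within genotype, and 1 to 4 with 1 library left out (1 without WT-NS 2 or WT-ST 3). Members fallen in Cko, 7 as reported, were 4 to 8 with 1 library left out (4 without Cko-ST 2). The members' median in Bcat against WT, 0.113, was -0.021 with the replicate block and -0.021 to 0.096 with 1 library left out (-0.021 without Bcat 3, 0.029 without WT 2). Of the 11 members called in WT 4 (Gapdh, Pgk1, Hif1a and Mxi1) and of the 12 in Cko 8 (Gapdh, Pgk1, Hif1a, Vegfa, Epas1, Pdk1, Ndrg1 and Ddit4) kept their call under every alternative that tested them, Vegfa being too low for the filter of 5 RPKM. The block by number changed no member's call between genotypes. The causes were not tested. Genes near 1 RPKM, such as Vegfa, Pfkl and Pfkm, rest on few reads at these depths.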
